A study of Mus musculus with 6 samples.

Results

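The genes described here are 9 components of the cytoplasmic and endosomal machinery that detects double-stranded RNA. They were chosen by identifier from the 30543 genes of the deposited count table: the sensors RIGI (ENSG00000107201), IFIH1 (ENSG00000115267), DHX58 (ENSG00000108771), EIF2AK2 (ENSG00000055332) and TLR3 (ENSG00000164342), the adaptor MAVS (ENSG00000088888), the kinase TBK1 (ENSG00000183735) and the transcription factors IRF3 (ENSG00000126456) and IRF7 (ENSG00000185507). All 9 identifiers were present in the table. RNA-seq compared CFPAC-1 cells, a human PAAD line, in which KRT7 was targeted by siRNA (si-KRT7, 3 libraries) with cells given a control siRNA (si-Control, 3 libraries). KRT7 encodes a keratin of glandular epithelium. Both groups therefore received short double-stranded RNA, and untransfected cells were not analysed here. The comparison asks whether the genes differ between cells given siRNA against KRT7 and cells given control siRNA. It does not measure the effect of transfection itself. The study lists 2 siRNAs against KRT7. The sources used here do not say which of them was used for sequencing, or whether all 3 si-KRT7 libraries received the same one. They also do not give the time after transfection. The sample labels do not say whether the 3 libraries of a group came from separate cultures, so the p-values measure the spread between these libraries, which may be technical.

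Cells read double-stranded RNA as a sign of viral infection. In the cytoplasm RIG-I, the product of RIGI, and MDA5, the product of IFIH1, bind such RNA and signal through MAVS on the mitochondrial surface. TLR3 does so in the endosome through another adaptor. Both routes lead to TBK1, which phosphorylates IRF3 and IRF7, and these then switch on interferon genes. EIF2AK2 encodes PKR, which halts translation when it binds double-stranded RNA. Several of these genes are themselves interferon-induced, which makes their mRNA levels a common readout in cells that have received siRNA.

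Libraries held between 28208896 and 36315802 counts. Library si-KRT7 replicate 2 stood apart: across the 15736 genes kept by the filter on low counts, its correlations of log2 CPM with si-KRT7 replicates 1 and 3 were 0.982 and 0.982, against 0.992 for that pair and 0.983 to 0.986 for pairs that cross groups. The points of these correlations are genes, not independent samples. This library also had the lowest total count, and the part of depth in its position was not tested. The fold change of each tested gene is therefore given with all 6 libraries and again with 5, without si-KRT7 replicate 2. That library was singled out because its values stood apart, so the p-values of the 5-library fit are not independent evidence. Only human identifiers for the listed genes were paired with symbols here, so the level of KRT7 itself, which would check the labels, and cell type markers were not analysed. Levels are given as CPM, the reads of a gene relative to the TMM-scaled size of its library. Transcript lengths were not used, so levels were not ranked between genes.

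EIF2AK2 was higher in si-KRT7 cells and was the single gene of the 8 tested to pass an adjusted p of 0.05 with all 6 libraries. Its levels were 81.1, 81.4 and 79.1 CPM in si-Control replicates 1, 2 and 3, and 131, 99.5 and 128 CPM in the si-KRT7 replicates. The groups did not overlap, and replicate 2 of si-KRT7 lay between the si-Control libraries and the other two. Mean levels were 80.5 ± 1.24 CPM (SD, n = 3) for si-Control and 120 ± 17.5 CPM (SD, n = 3) for si-KRT7. This corresponded to a log2 fold change of 0.57 (SE 0.11, 95% interval 0.31 to 0.83), or 1.48-fold, with an adjusted p of 0.0445 in edgeR's quasi-likelihood test. A two-sided exact permutation test on log2 CPM reached p = 0.1, its lower limit with 3 libraries a group. In bulk RNA, a change in a fraction of the cells and a change per cell cannot be told apart. The adjusted p lay close to the limit and EIF2AK2 passed it in 7 of 15 alternatives, with adjusted p-values over edgeR, limma and DESeq2 fits from 6.86e-12 to 0.257 and a log2 fold change between 0.50 and 0.68. The call was lost without si-Control replicate 1, 2 or 3 (edgeR adjusted p = 0.229, 0.218 and 0.257) and without si-KRT7 replicate 1 or 3 (edgeR adjusted p = 0.150 and 0.181). Without si-KRT7 replicate 2 the log2 fold change was 0.68 (SE 0.041, adjusted p = 6.86e-12 in edgeR).

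**Figure D1:**
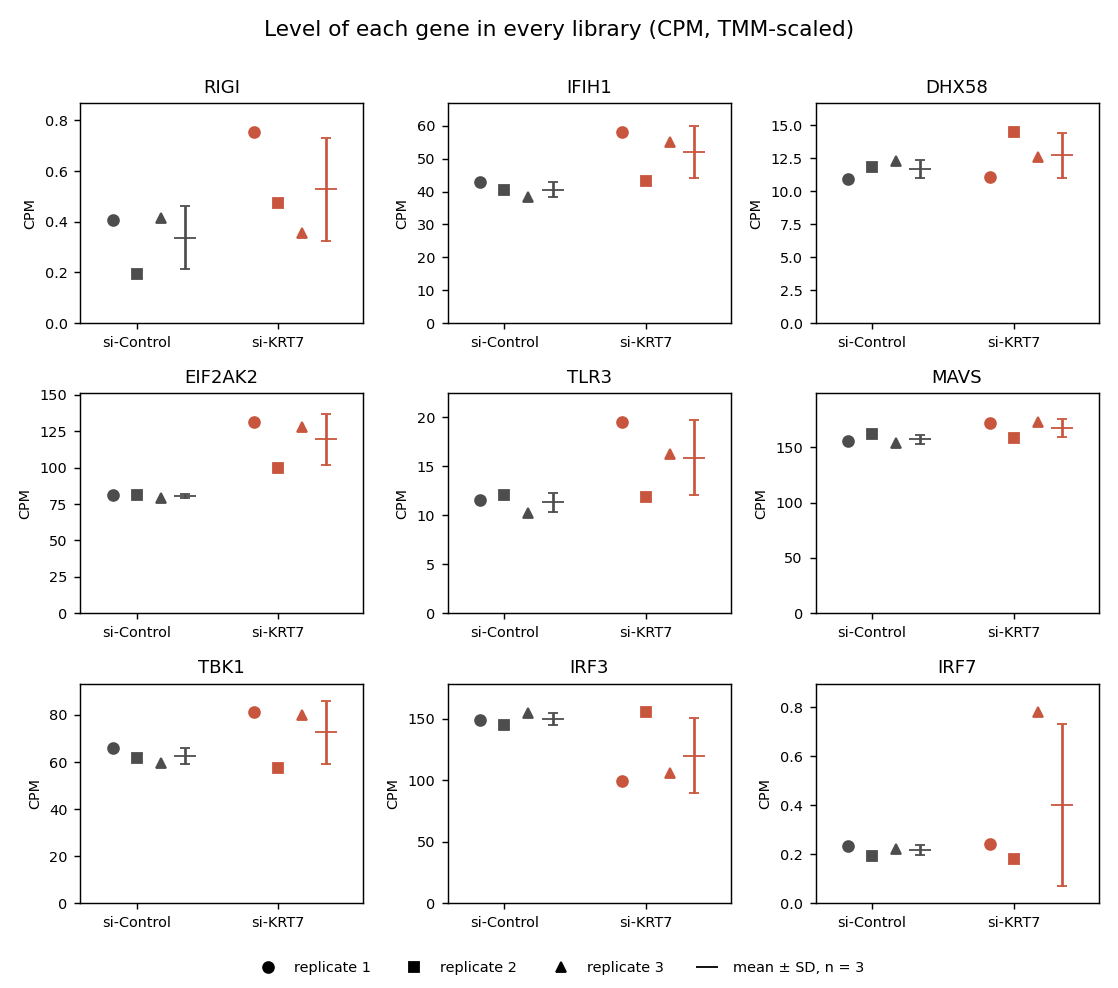
Level of each of the 9 genes in every library, in CPM after TMM scaling on a linear axis from 0, with replicates 1 to 3 as circle, square and triangle and the mean ± SD (n = 3) beside them. EIF2AK2 lies between 79.1 and 81.4 CPM in si-Control and between 99.5 and 131 CPM in si-KRT7 libraries, whereas IRF3 is at 99.3 and 106 CPM in si-KRT7 replicates 1 and 3 and at 156 CPM in replicate 2.

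IFIH1, whose product MDA5 recognises long double-stranded RNA, had 42.8, 40.6 and 38.5 CPM in the si-Control libraries. In si-KRT7 replicates 1, 2 and 3 it had 58.1, 43.1 and 54.9 CPM. The groups did not overlap, but replicate 2 of si-KRT7 exceeded the highest si-Control library only at 43.1 against 42.8 CPM. The log2 fold change was 0.36 (SE 0.12, 95% interval 0.079 to 0.64) and did not pass the limit (adjusted p = 0.171 in edgeR, exact permutation p = 0.1). With 5 libraries it was 0.47 (SE 0.060, adjusted p = 8.06e-07 in edgeR). Over its alternatives the log2 fold change lay between 0.27 and 0.47, and the adjusted p between 8.06e-07 and 0.482.

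TLR3 is the endosomal sensor. Its levels were 11.6, 12.1 and 10.3 CPM in si-Control and 19.5, 11.9 and 16.2 CPM in si-KRT7 libraries. Replicate 1 of si-KRT7 reached 172% and replicate 3 reached 143% of the si-Control mean, while replicate 2 had 105%, inside the si-Control range. The log2 fold change of 0.49 (SE 0.18, 95% interval 0.082 to 0.89) did not pass the limit with 6 libraries (adjusted p = 0.197 in edgeR, exact permutation p = 0.2). With 5 it was 0.65 (SE 0.10, adjusted p = 1.66e-05 in edgeR). Adjusted p-values of its alternatives ran from that value to 0.505. Without si-KRT7 replicate 1 the log2 fold change was 0.31 (adjusted p = 0.491 in edgeR).

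DHX58 encodes LGP2, a relative of RIG-I and MDA5 that lacks their signalling domains and modulates them. It had 10.9, 11.9 and 12.3 CPM in si-Control and 11.04, 14.5 and 12.6 CPM in si-KRT7 libraries. Here replicate 2 of si-KRT7 was the highest of all libraries, at 124% of the si-Control mean, and replicates 1 and 3 were at 94.4% and 108%. The log2 fold change was 0.12 (SE 0.13, 95% interval -0.17 to 0.41, adjusted p = 0.674 in edgeR) with 6 libraries and 0.0099 (SE 0.11, 95% interval -0.21 to 0.23, adjusted p = 0.955 in edgeR) with 5. It was 0.21 without si-KRT7 replicate 1 and 0.069 without si-Control replicate 1, and adjusted p-values of its alternatives lay between 0.565 and 0.955.

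RIGI was scarcely detected. It had 14, 7 and 13 reads in si-Control and 28, 13 and 11 reads in si-KRT7 replicates 1, 2 and 3, or 0.193 to 0.754 CPM. The count of 28 has a 95% exact Poisson interval of 18.6 to 40.5, which overlaps those of 14 (7.65 to 23.5), 13 (6.92 to 22.2) and 11 (5.49 to 19.7) but not that of 7 (2.81 to 14.4). These intervals cover counting error only. The fitted log2 fold change was 0.67 (SE 0.46, 95% interval -0.37 to 1.71, adjusted p = 0.480 in edgeR, exact permutation p = 0.3). With 5 libraries it was 0.74 (SE 0.55, adjusted p = 0.302 in edgeR), and adjusted p-values of its alternatives lay between 0.242 and 0.868. The log2 fold change was 0.30 without si-KRT7 replicate 1 and 0.38 without si-Control replicate 2. The 95% interval with 6 libraries thus held a small decrease, no difference and a rise of more than 2-fold, up to a log2 fold change of 1.71.

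**Figure D2:**
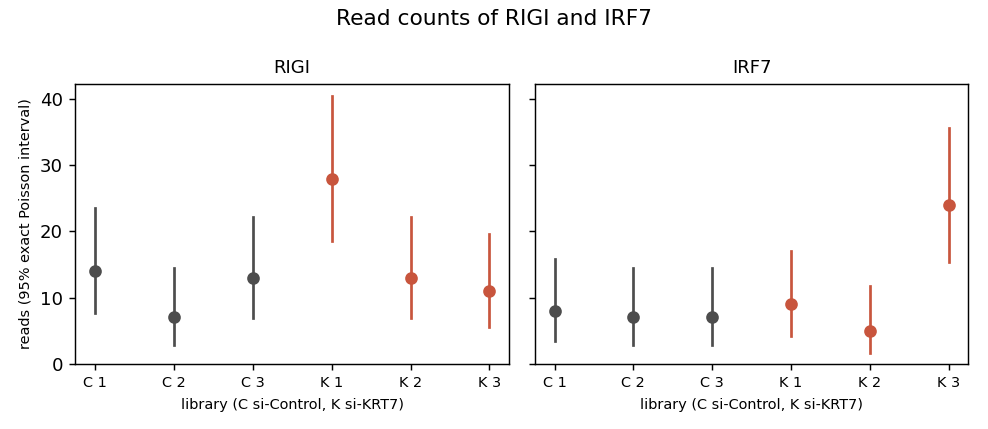
Read counts of RIGI (left) and IRF7 (right) in each library, with 95% exact Poisson intervals as vertical lines, C for si-Control and K for si-KRT7 replicates 1 to 3. RIGI reaches 28 reads in si-KRT7 replicate 1 and IRF7 24 reads in si-KRT7 replicate 3, while the other libraries hold between 5 and 14 reads of either gene.

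Downstream of the sensors, MAVS differed little. This mitochondrial adaptor had 156, 162 and 154 CPM in si-Control and 172, 158 and 173 CPM in si-KRT7 libraries. Replicates 1 and 3 of si-KRT7 were at 110% and 110% of the si-Control mean and replicate 2 at 101%, inside the si-Control range. The log2 fold change was 0.094 (SE 0.073, 95% interval -0.074 to 0.26) and did not pass the limit (adjusted p = 0.540 in edgeR, exact permutation p = 0.2). With 5 libraries it was 0.13 (SE 0.037, adjusted p = 0.00546 in edgeR), so that a change of 1.09-fold passed the test there. In its other alternatives the adjusted p reached up to 0.827.

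TBK1, the kinase that acts on IRF3, had 66.1, 61.9 and 59.4 CPM in si-Control libraries. It had 81.1, 57.3 and 79.7 CPM in those of si-KRT7. Replicates 1 and 3 of si-KRT7 were above every si-Control library and replicate 2 below every one. With 6 libraries the log2 fold change was 0.22 (SE 0.14, 95% interval -0.091 to 0.53, adjusted p = 0.432 in edgeR, exact permutation p = 0.4). With 5 it was 0.36 (SE 0.052, adjusted p = 4.49e-06 in edgeR). That adjusted p was the lowest of its alternatives, and the highest was 0.773. Without si-KRT7 replicate 1 the log2 fold change was 0.13 (adjusted p = 0.772 in edgeR).

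IRF3, the transcription factor that TBK1 activates and that most cells hold without induction, was the only tested gene of the list with a negative log2 fold change. It stood at 149, 145 and 155 CPM in si-Control libraries. In si-KRT7 replicates 1 and 3 it was at 99.3 and 106 CPM, or 66.3% and 70.7% of the si-Control mean. Replicate 2 of si-KRT7 was at 156 CPM, or 104%, above the 3 si-Control libraries. With 6 libraries the log2 fold change was -0.32 (SE 0.16, 95% interval -0.68 to 0.045) and did not pass the limit (adjusted p = 0.331 in edgeR, exact permutation p = 0.4). With 5 it was -0.55 (SE 0.042, 95% interval -0.64 to -0.46, adjusted p = 3.51e-10 in edgeR). Over its alternatives the adjusted p ran up to 0.663. Without si-KRT7 replicate 1 the log2 fold change was -0.20 (adjusted p = 0.657 in edgeR). In si-KRT7 replicates 1 and 3, IRF3 thus lay below the si-Control libraries where EIF2AK2, IFIH1, TLR3, TBK1 and MAVS lay above them. The share of all genes with these replicates outside the si-Control range was not computed.

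IRF7, which in most cell types is made after interferon signalling, had 8, 7 and 7 reads in si-Control and 9, 5 and 24 reads in si-KRT7 libraries. It did not pass the filter on low counts and was not tested. Replicate 3 of si-KRT7 held the 24 reads (95% exact Poisson interval 15.4 to 35.7). This interval overlaps those of the counts of 8 (3.45 to 15.8) and 9 (4.12 to 17.1). It does not overlap those of 7 (2.81 to 14.4) and 5 (1.62 to 11.7). In a fit of all 30543 genes without a filter its log2 fold change was 0.87 (SE 0.63, adjusted p = 0.630 in edgeR).

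**Figure D3:**
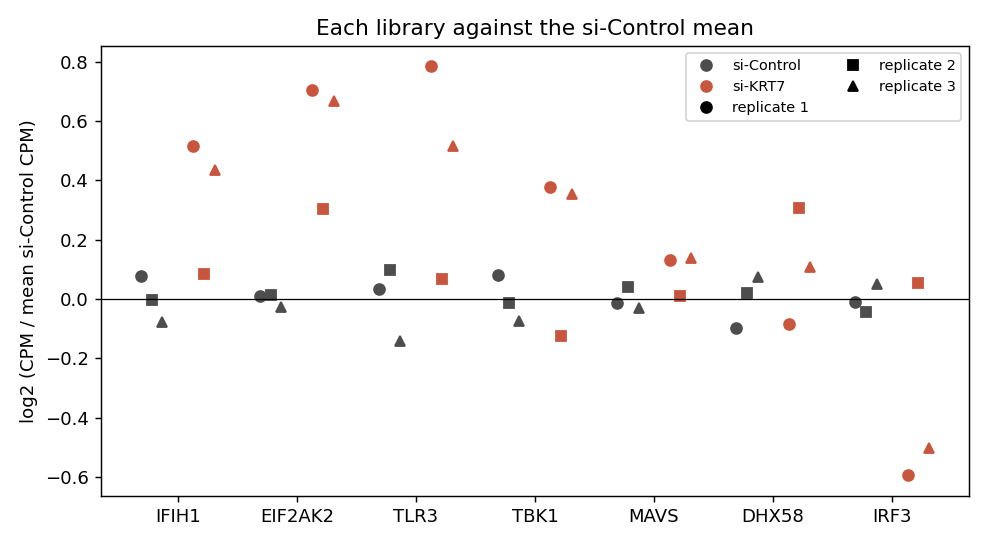
Log2 ratio of each library's CPM to the si-Control mean for the 7 genes with at least 323 reads in every library, si-Control in grey and si-KRT7 in red, replicates by symbol. In si-KRT7 replicates 1 and 3 the ratios run from 0.35 to 0.78 for IFIH1, EIF2AK2, TLR3 and TBK1 and are -0.59 and -0.50 for IRF3, whereas replicate 2 lies between -0.12 and 0.31 for all 7.

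Counted together, 8 of the 9 genes were tested. With 6 libraries 1 of the 8 had an adjusted p under 0.05 in edgeR, or 12.5%, against 2.07% of all 15736 genes tested. None of the 8 also exceeded an absolute log2 fold change of 1, as did 0.292% of all genes, and 3 had an unadjusted p under 0.05 (EIF2AK2, IFIH1 and TLR3), or 37.5%, against 18.6%. The groups did not overlap in 2 of the 8 (EIF2AK2 and IFIH1, both higher), or 25.0%, near the 24.4% over all genes, of which 11.3% were higher and 13.0% lower. Log2 fold changes were positive in 7 and negative in 1, with a median of 0.29 against 0.011 over all genes.

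With 5 libraries 6 of the 8 genes had an adjusted p under 0.05 in edgeR, or 75.0%, while 42.9% of the 16202 genes tested did so. Of the 6, EIF2AK2, IFIH1, TLR3, TBK1 and MAVS were higher (62.5% of the 8, against 20.9% of all genes) and IRF3 was lower (22.0% of all genes were). None passed a log2 fold change of 1 in either direction, as did 2.20% of all genes. The median of the 8 was 0.42, against -0.0094 over all genes. The spread within si-KRT7, as a coefficient of variation of CPM, exceeded that within si-Control in all 8 tested genes, as it did in 76.7% of all genes tested.

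**Figure D4:**
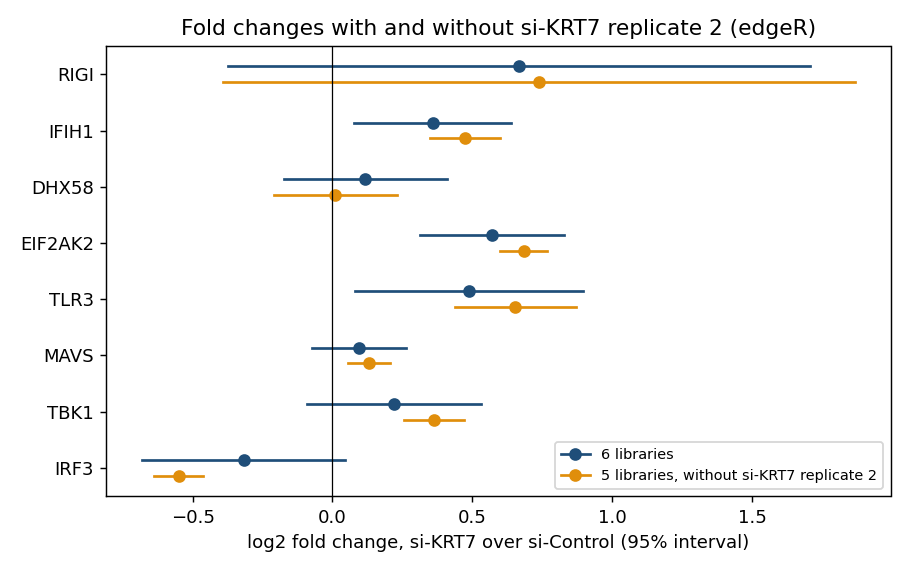
Log2 fold change of si-KRT7 over si-Control with its 95% interval from edgeR for the 8 tested genes, with 6 libraries in blue and with 5 in orange. The interval of EIF2AK2 lies above 0 in both (0.31 to 0.83 and 0.60 to 0.77), while that of IRF3 includes 0 with 6 libraries and runs from -0.64 to -0.46 with 5.

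Ratios between 2 genes of the same library do not depend on how libraries are scaled. MAVS, with 4350 to 6393 reads per library, was used as the denominator, a choice made after its small difference was seen. MAVS was itself higher in si-KRT7 with 5 libraries (log2 fold change 0.13, adjusted p = 0.00546 in edgeR). For every 100 MAVS reads there were 52.0, 50.3 and 51.4 EIF2AK2 reads in si-Control and 76.2, 62.9 and 74.0 in si-KRT7 libraries, without overlap (exact permutation p = 0.1, the smallest possible). TLR3 had 7.44, 7.48 and 6.67 reads per 100 MAVS reads in si-Control and 11.3, 7.49 and 9.37 in si-KRT7 libraries (exact permutation p = 0.1). Its groups, which overlapped in CPM, were separated here by the gap between 7.48 and 7.49 alone. IFIH1 had 27.5, 25.1 and 25.0 against 33.7, 27.2 and 31.8 (exact permutation p = 0.2), and its groups, separate in CPM, overlapped on this scale. IRF3 had 95.5, 89.9 and 101 reads per 100 MAVS reads in si-Control and 57.7, 98.3 and 61.3 in si-KRT7 libraries (exact permutation p = 0.3), so that replicate 2, above every si-Control library in CPM, lay within their range here. The position of si-KRT7 replicate 2 against the controls thus depended on the scale for TLR3, IFIH1 and IRF3 and not for EIF2AK2, TBK1 and DHX58. On both scales that replicate was below every si-Control library for TBK1 and above every one for EIF2AK2 and DHX58. TBK1 and DHX58 also overlapped on this scale (exact permutation p = 0.4 and p = 0.9). These 6 ratios were not adjusted for their number. The share of all genes without overlap was not computed on this scale, and in CPM it was 24.4%.

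**Figure D5:**
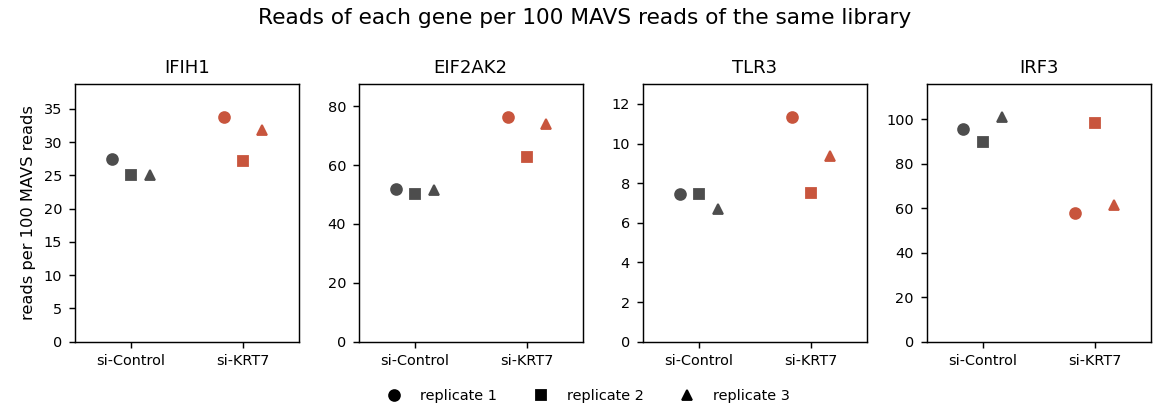
Reads of IFIH1, EIF2AK2, TLR3 and IRF3 per 100 MAVS reads of the same library, on linear axes from 0, by group and replicate. EIF2AK2 lies between 50.3 and 52.0 in si-Control and between 62.9 and 76.2 in si-KRT7 libraries, and IRF3 at 57.7, 98.3 and 61.3 in replicates 1, 2 and 3 of si-KRT7.

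Likeness among the 9 genes was measured as the root mean square difference of log2 CPM over the 6 libraries, each gene centred on its own mean. The closest pair was IFIH1 and TBK1, with a difference of 0.080. IFIH1 was also nearest to TLR3 (0.11) and to EIF2AK2 (0.11). IRF3 was far from all, with DHX58 nearest at 0.26, and the sparse genes RIGI and IRF7 were no nearer than 0.41 and 0.49 to any other gene. With 6 libraries these distances describe the libraries and were not tested.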

How the data were processed

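The table deposited by the authors holds raw counts of reads for every gene in 6 libraries, and no per-sample column was left unused. Its columns are named NC and Si with a replicate number, and were matched to si-Control and si-KRT7 through the study's use of NC for the control siRNA. The direction of each difference rests on that match, which was not checked against the level of KRT7. Polyadenylated RNA was sequenced on the DNBSEQ platform. The submitters' processing notes name STAR 2.7.11b and GRCm39, a mouse build, and the labels name the mouse, whereas all 30543 identifiers are human. The counting tool, its strand setting and the annotation are not given in the sources used here, so reads of overlapping genes could not be assigned further. The members' symbols came with the list of identifiers. The name tables used here are of the mouse and matched 0 identifiers, so the lists of other pathway genes and of cell markers, positions and sequences were not analysed here. Members and lists were chosen with earlier results of these data known.

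Tests were run with edgeR 4.0.16 in R 4.3.3 (filterByExpr, TMM, glmQLFit, glmQLFTest, Benjamini-Hochberg adjustment over all genes tested). SEs were derived from the F statistic and are approximate. Log2 CPM used a prior count of 2. Alternatives used DESeq2 1.42.0 and limma 3.58.1, and the edgeR, DESeq2 Wald and limma-voom tests were checked on simulated counts. The simulation gave every gene the same dispersion and set no library apart. Its changes were larger than those fitted for the 9 genes. It therefore does not show how the tests behave with a library such as si-KRT7 replicate 2. All 9 members were to be named. No 2 libraries had counts that agreed within sampling noise.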

Additional observations from a re-analysis of the deposited data

How the results depend on the processing

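The number of the 9 genes with an adjusted p under 0.05 was 1 in edgeR. It was 0 with library size only (EIF2AK2 at an adjusted p of 0.0611) and with limma-voom (0.0502), 6 in limma-voom with sample quality weights (EIF2AK2, IFIH1, TLR3, TBK1, MAVS and IRF3), which called 43.6% of all genes, and 3 without a filter on low counts (EIF2AK2, TLR3 and IRF3), which called 4.41%. The cause was not tested. The number stayed at 1 with DESeq2's size factors (2.05% of all genes called) and in the DESeq2 Wald test (7.30%). It was also 1 with at least 10 counts in every library (2.34%). Without the 100 most abundant genes, an alternative chosen after seeing the data, it was 1 as well (2.16%). The main edgeR fit called 2.07% of all genes. Leaving out 1 library at a time gave 0 to 6, with 6 only without si-KRT7 replicate 2 (the 6 genes just named) and 0 without any other. The share of all genes called was 42.9% without that library, 0.0372% to 0.0616% without a si-Control library, and 0.542% and 0.223% without si-KRT7 replicates 1 and 3. With the replicate block it was 0, with 0.483% of all genes called (EIF2AK2 log2 fold change 0.56, adjusted p = 0.102 in edgeR). When each library was centred on its group, pairs with the same number correlated at 0.052, -0.080 and -0.073 over genes, so a shared number was not taken as a pairing. No gene passed both limits in any of the 15 alternatives, and no log2 fold change of the 8 tested genes changed sign. CPM on library size only moved the mean levels of the 9 genes by less than 1 SD, and a prior count of 0.5 did not change which gene was nearest to which. RIGI and IRF7 are limited by their few reads, at most 28 in a library, and the reason for the low counts was not tested.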
